A study of Rattus norvegicus with 14 samples.

Results

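The chains of laminin and type IV collagen and the nidogens, the building blocks of the basement membrane, were followed across 7 rat cell lines. The 10 genes considered were Lama1, Lama5, Lamb1, Lamb2, Lamc1, Nid1, Nid2, Col4a1, Col4a2 and Hspg2, and a probe belonged to them if its gene name, or the symbol in its description, was one of these. This gave 15 probes of 9 genes among 41012 distinct probes, of which 29308 were tested. Hspg2 had no probe by this rule, and 2 probes that the array design describes as perlecan, the protein Hspg2 encodes, are given apart. All 15 probes passed the filter, which asked that at least 1 line have both its arrays well above background, and 14 of them were well above background on all 14 arrays.

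A basement membrane is a thin sheet of matrix under epithelia and endothelia. Laminin is a trimer of an alpha, a beta and a gamma chain that polymerises on the cell surface, type IV collagen forms a covalently linked network beside it, and nidogens and perlecan connect them. In the early rodent embryo the trimer of the Lama1, Lamb1 and Lamc1 products is the main laminin, and the parietal endoderm, which descends from the primitive endoderm or hypoblast, lays down a thick basement membrane made of these proteins.

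Blastocyst-derived lines were Fi1 (Fischer, male), Fi2 (Fischer, female) and Wk8 (Wistar-Kyoto, female). Bone marrow-derived lines were CL19 (Fischer, female), 3C3 and RMAPC-1 (both Fischer, male). The control was RClone-2, 1 mesenchymal line from a male Fischer rat, so no spread between mesenchymal lines was measured, and Wk8 was the only line of its strain, so its strain and the line cannot be told apart. Total RNA of each line was hybridised to arrays A and B, and the labels do not say whether these came from separate cultures. The line was therefore the replicate, and p-values measure the spread between lines only. Values are log2 signals relative to the 75th percentile of the same array, called log2 signals here, and because hybridisation differs between probes a level is compared only within a probe. Since whole cultures were measured, fewer cells of a type and less RNA per cell cannot be told apart.

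The marker genes set the 6 stem cell lines apart from RClone-2. Of 8 primitive endoderm markers 7 were higher in the stem cell lines and 0 lower, and of 7 parietal endoderm markers 7 were higher. Higher too were 5 of 7 visceral endoderm, 4 of 5 endothelial and 2 of 2 pluripotency markers tested. So were 2 of 4 trophoblast and 1 of 2 blood markers tested, with 0 lower in each of these lists. Over all 29308 tested probes 25.3% were higher and 22.5% lower. Of 9 mesenchymal markers 9 were lower in the stem cell lines, where 3 of them (Col1a1, Col1a2 and Twist1) were well above background on all arrays of both origins, against 9 in RClone-2. Between 61.7% and 68.0% of all probes were well above background on an array. The 75th percentile of an array, taken before scaling, ran from 745.7 to 891.5 for blastocyst lines and from 558.9 to 660.1 for bone marrow lines, with 599.0 and 630.7 for RClone-2.

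The probes that carry the main values are 60 bases long. They are shown with the positions that the array design gives on the rn4 rat genome, where a range wider than 60 bases means that the probe's bases lie in more than 1 stretch of the genome. Exon annotation of that build was not used here. The first 3 lie in the chains of the embryonic laminin trimer, at chr9:106973476-106973535 (+ strand), chr6:49178140-49179911 (+ strand) and chr13:68251375-68252423 (- strand).
Lama1: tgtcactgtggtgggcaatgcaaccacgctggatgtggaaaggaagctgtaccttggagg
Lamb1: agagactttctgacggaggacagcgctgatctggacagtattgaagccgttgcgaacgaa
Lamc1: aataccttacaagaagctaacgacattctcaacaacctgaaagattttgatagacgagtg

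The brightest probes of Lama5, Nid1 and Col4a2 are shown because Lama5 was lower in the stem cell lines than in RClone-2, unlike the trimer, and because Nid1 and Col4a2 separated the origins. They lie at chr3:169234188-169234247, chr17:66858545-66859398 and chr16:82900301-82900360, all on the - strand.
Lama5: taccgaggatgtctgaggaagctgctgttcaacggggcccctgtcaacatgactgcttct
Nid1: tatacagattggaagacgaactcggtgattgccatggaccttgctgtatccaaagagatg
Col4a2: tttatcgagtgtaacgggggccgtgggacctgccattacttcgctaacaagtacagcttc

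Nid1 had 2 further probes that are not independent of each other. They overlap in the genome (chr17:66901111-66901170 and chr17:66901133-66901190, - strand) and share a run of 26 bases. After this run their bases differ, although the positions overlap over a longer stretch. The range given for the dimmest probe spans 58 bases, fewer than its 60. The cause was not tested. The run is printed in capitals within a window of 30 bases of each probe.
Nid1, second probe: TCCACACAATGTACCTAGGACCCTAGctcc
Nid1, dimmest probe: gaTCCACACAATGTACCTAGGACCCTAGtc
Probes of different genes shared no run longer than 11 bases.

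The 3 chains of the embryonic laminin trimer were higher in every stem cell line than in RClone-2, and within the stem cell lines they were higher in the blastocyst lines. Lama1, the alpha-1 chain, had log2 signals of 7.65 and 7.60 in Fi1, 7.74 and 7.81 in Fi2 and 8.03 and 8.13 in Wk8. In the bone marrow lines they were 7.26 and 7.06 in CL19, 5.96 and 7.05 in 3C3 and 7.02 and 6.54 in RMAPC-1, against -3.64 and -3.90 in RClone-2. All 6 blastocyst arrays lay above all 6 bone marrow arrays, and RClone-2 lay far below both. From high to low the lines ran Wk8, Fi2, Fi1, CL19, RMAPC-1, 3C3 and RClone-2, and RMAPC-1 and 3C3 were the only neighbours whose arrays overlapped. The gap between the arrays of one line was largest in 3C3, at 1.09.

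Lamb1, the beta-1 chain, kept the same order of lines. Its log2 signals were 7.67 and 7.64 in Fi1, 7.65 and 7.86 in Fi2 and 8.02 and 8.05 in Wk8, against 7.21 and 6.92 in CL19, 6.39 and 7.04 in 3C3 and 6.99 and 6.67 in RMAPC-1. RClone-2 had 3.24 and 3.11, so that this chain was present at a clear signal in the mesenchymal line too. Lamc1, the gamma-1 chain shared by most laminins, had 4.67 and 4.83 in Fi1, 4.89 and 5.24 in Fi2 and 5.45 and 5.39 in Wk8. The bone marrow lines had 3.77 and 3.45 in CL19, 2.60 and 3.50 in 3C3 and 3.51 and 4.04 in RMAPC-1, against 0.63 and 0.59 in RClone-2. For both genes the arrays of the blastocyst lines did not overlap those of the bone marrow lines. The second probe of Lamc1 ranged from 3.03 to 4.42 on blastocyst arrays, from 2.12 to 2.48 on bone marrow arrays, and was -0.87 and -1.22 in RClone-2.

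**Figure D1:**
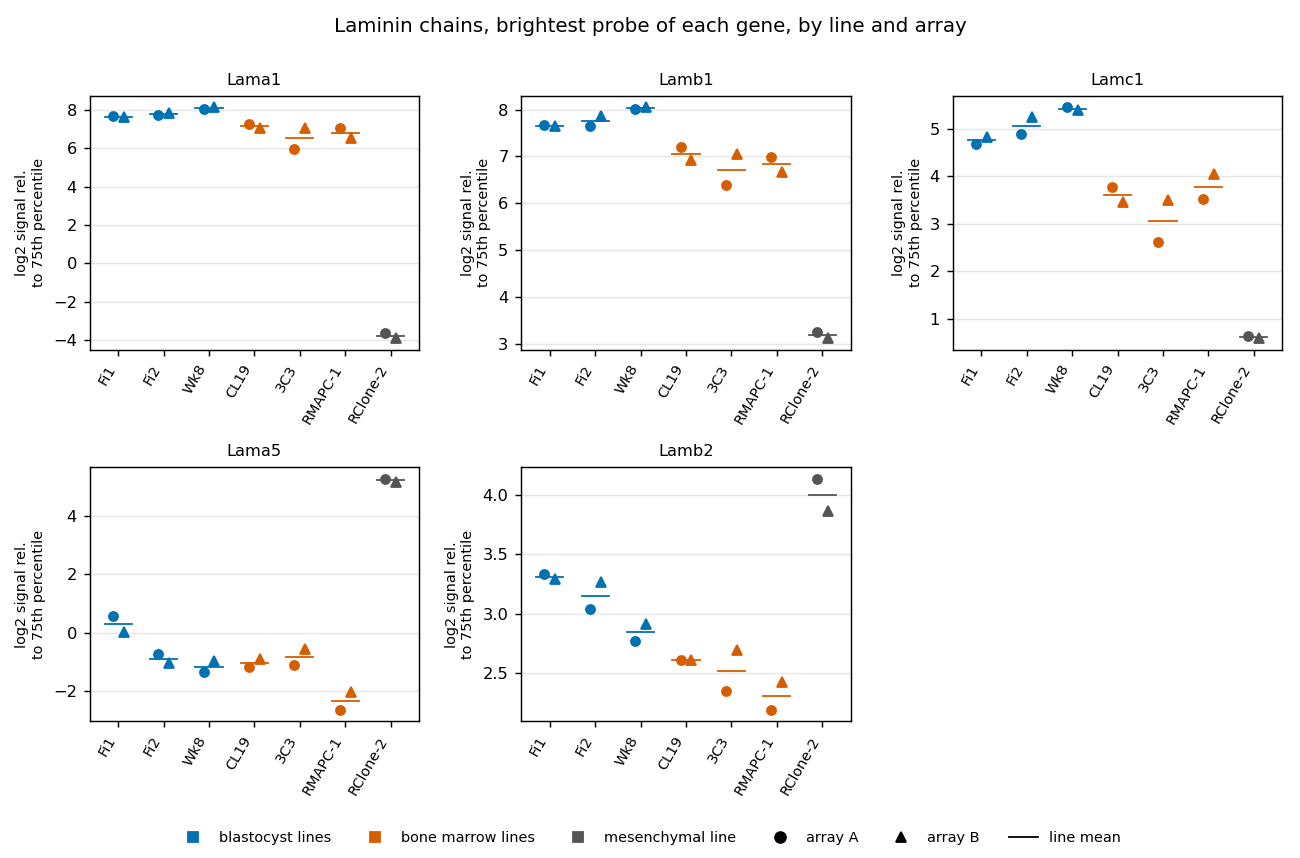
Log2 signal relative to the array's 75th percentile (vertical axis) of the laminin probes in each line, with circles for array A, triangles for array B and a bar for the line mean. Lama1, Lamb1 and Lamc1 were highest in the blastocyst lines and lowest in RClone-2, where Lama1 was -3.64 and -3.90, while Lama5 was highest in RClone-2 at 5.28 and 5.17.

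In the limma fit over the 7 line means, Lama1 was higher in the blastocyst than in the bone marrow lines by 1.01 ± 0.21 on the log2 scale (SE, 3 lines against 3, adjusted p = 0.0198). Lamb1 differed by 0.95 ± 0.16 (1.93-fold, adjusted p = 0.0118), and Lamc1 by 1.60 ± 0.26 (3.03-fold, adjusted p = 0.0110) with its brightest probe and 1.08 ± 0.32 (2.12-fold, adjusted p = 0.0455) with its second. Against RClone-2 the 6 stem cell lines were higher by 11.09 ± 0.28 for Lama1 (adjusted p = 2.5e-06), 4.16 ± 0.21 for Lamb1 (17.9-fold, adjusted p = 3.04e-05), and 3.67 ± 0.34 and 3.92 ± 0.42 for the probes of Lamc1 (12.7-fold and 15.1-fold, adjusted p = 0.000399 and 0.000713). With normexp background correction the Lama1 difference from RClone-2 was 9.84, still past the threshold. Between the origins normexp kept the call of the brightest Lamc1 probe (1.53, adjusted p = 0.0288) and lost those of Lama1 (0.96, adjusted p = 0.0575), Lamb1 (0.88, adjusted p = 0.0503) and the second Lamc1 probe (1.02, adjusted p = 0.111).

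The other laminin chains behaved otherwise. Lama5, the alpha-5 chain of many mature epithelial and vascular basement membranes, was far lower in the stem cell lines than in RClone-2. Its brightest probe had log2 signals of 0.56 and 0.02 in Fi1, -0.73 and -1.04 in Fi2 and -1.36 and -0.98 in Wk8. The bone marrow lines had -1.17 and -0.91 in CL19, -1.12 and -0.55 in 3C3 and -2.65 and -2.04 in RMAPC-1, against 5.28 and 5.17 in RClone-2. The origins overlapped, and 3C3, Fi2, CL19 and Wk8 followed each other with overlapping arrays, while Fi1 stood above and RMAPC-1 below them.

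The stem cell lines were lower in Lama5 with log2 differences of -6.22 ± 0.71 (74.7-fold), -6.28 ± 0.83 (77.6-fold) and -4.34 ± 0.27 (20.3-fold) for the 3 probes, from the brightest to the dimmest, with adjusted p-values of 0.000965, 0.00172 and 7.46e-05. With normexp background correction the dimmest gave -2.46 and still passed. Between the origins the 3 probes gave 0.81 ± 0.54, 0.93 ± 0.63 and 0.19 ± 0.20, and none passed (adjusted p = 0.285, 0.291 and 0.496).

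Lamb2, the beta-2 chain found in kidney filter and muscle basement membranes, was also highest in RClone-2. Its log2 signals lay between 2.77 and 3.33 on blastocyst arrays (median 3.15) and between 2.19 and 2.69 on bone marrow arrays (median 2.51), against 4.14 and 3.87 in RClone-2. The blastocyst and bone marrow arrays did not overlap, and RClone-2 stood above all of them. Lamb2 was lower in the stem cell lines by 2.32-fold (log2 difference -1.21 ± 0.22, adjusted p = 0.00573) and 1.54-fold higher in the blastocyst than in the bone marrow lines (0.63 ± 0.17, adjusted p = 0.0349). The call between origins was lost without any one of Fi1, Fi2, CL19, 3C3 and RMAPC-1 (adjusted p = 0.0611 to 0.102), with spike-in scaling (0.41, adjusted p = 0.263) and with normexp (0.58, adjusted p = 0.113).

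The nidogens, which link laminin to type IV collagen, differed in their order of groups. Nid1 had the largest difference between the origins of all 15 probes, and RClone-2 lay between them. Its brightest probe had log2 signals of 4.47 and 4.26 in Fi1, 3.68 and 3.57 in Fi2 and 5.08 and 5.39 in Wk8. In the bone marrow lines they were 1.24 and 0.59 in CL19, -0.46 and 0.87 in 3C3 and -0.96 and 1.11 in RMAPC-1, against 3.01 and 3.05 in RClone-2. The 3 groups did not overlap, whereas CL19 and 3C3, and 3C3 and RMAPC-1, overlapped with each other. The arrays of RMAPC-1 differed by 2.07, the largest gap of any line for this probe, which is smaller than the distance of the higher one to the lowest blastocyst array.

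The other Nid1 probes, dimmer and overlapping in sequence, gave the same order of groups. The second ranged from -2.49 to -0.73 on blastocyst arrays and from -6.39 to -4.42 on bone marrow arrays, with -2.95 and -3.26 in RClone-2. The dimmest ranged from -2.68 to -0.88 on blastocyst arrays and from -6.17 to -4.90 on bone marrow arrays, with -3.37 and -3.40 in RClone-2. They differed between the origins by 3.58 ± 0.39 (adjusted p = 0.00561) and 3.74 ± 0.33 (13.4-fold, adjusted p = 0.00412), beside 4.01 ± 0.45 (adjusted p = 0.00584) for the brightest. With normexp background correction the dim probes gave 1.69 and 1.85, both still past the threshold.

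The origins lay on both sides of RClone-2, and the mean of the stem cell lines against it did not pass for Nid1 (log2 differences -0.63 ± 0.59, -0.34 ± 0.51 and -0.20 ± 0.43, adjusted p = 0.418, 0.611 and 0.736). Taken by origin against the same RClone-2 arrays, the blastocyst lines gave 1.38 (adjusted p = 0.119), 1.45 (adjusted p = 0.0704) and 1.67 (adjusted p = 0.0271) with the 3 probes, and the bone marrow lines gave -2.63 (adjusted p = 0.0171), -2.13 (adjusted p = 0.0214) and -2.07 (adjusted p = 0.0133). The first set rests on 1 probe, whose call was lost without Fi1 (adjusted p = 0.0505) or the A arrays (1.55, adjusted p = 0.166). In the second set the dim probes lost their calls with normexp (-0.65 and -0.63, adjusted p = 0.20 and 0.189) and without the A arrays (adjusted p = 0.129 and 0.0938), and the second probe also without RMAPC-1 (adjusted p = 0.0535).

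Nid2, the other nidogen, was higher in the stem cell lines than in RClone-2 and did not pass between the origins. Its log2 signals were 1.47 and 1.74 in Fi1, 1.92 and 2.15 in Fi2 and 0.64 and 0.78 in Wk8, against 2.87 and 2.91 in CL19, 2.21 and 1.83 in 3C3 and 2.68 and 2.32 in RMAPC-1. RClone-2 had -2.74 and -2.68, below all stem cell arrays. The origins overlapped through Fi2 and 3C3, and Wk8 was the lowest stem cell line for Nid2 and the highest for Nid1. The stem cell lines were 25.5-fold above RClone-2 (4.67 ± 0.52, adjusted p = 0.000822, and 3.98 with normexp), and the difference between origins, -1.02 ± 0.39, did not pass (adjusted p = 0.0932).

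**Figure D2:**
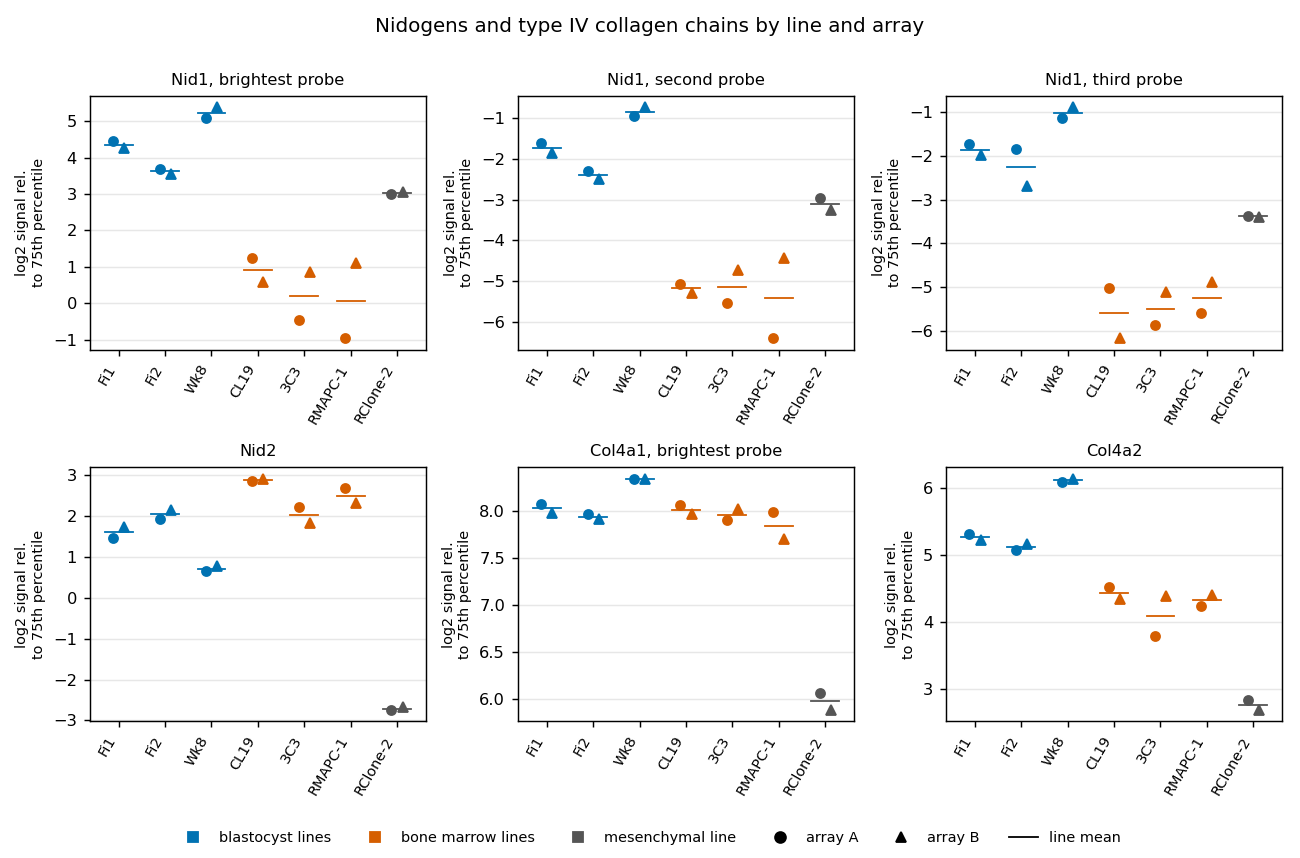
Log2 signal relative to the array's 75th percentile (vertical axis) of the nidogen probes and of the brightest probe of Col4a1 and of Col4a2 in each line, with circles for array A, triangles for array B and a bar for the line mean. For Nid1 the blastocyst lines lay above RClone-2 and the bone marrow lines below it with each of the 3 probes, while RClone-2 was lowest for Nid2, Col4a1 and Col4a2.

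Col4a1 and Col4a2 encode the chains that join in the most widespread type IV collagen. In RefSeq's GRCr8 assembly their start sites lie head to head on chromosome 16, Col4a1 at 84885597 on the + strand and Col4a2 at 84885520 on the - strand. The 76 bases between them (chr16:84885521-84885596, + strand) are shown because both genes are read outward from this stretch. Capitals mark its 1 match to GGGCGG on either strand.
Col4a1/Col4a2: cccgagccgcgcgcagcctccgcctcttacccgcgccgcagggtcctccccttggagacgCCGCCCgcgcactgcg
Of these bases 78.9% were G or C, and CCAAT, searched on both strands, had 0 matches. In windows of the same length before the start of 33469 rat promoters, 18.1% held GGGCGG and 13.0% held CCAAT. The wider promoter windows of RefSeq run from 250 bases before to 50 bases after a start. They were found for 8 of the 10 genes. GGGCGG was present in 7 of these 8 (Lama5, Lamb1, Lamc1, Nid1, Col4a1, Col4a2 and Hspg2), against 33.1% of all 33469. The windows of Col4a1 and Col4a2 overlap, so the match between their start sites counts for both. CCAAT was present in 4 of the 8 (Lama1, Nid1, Col4a1 and Col4a2), against 37.5% of all. A match is a match of letters and no measure of binding.

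Between the origins Col4a2 passed the test and Col4a1 did not. Col4a1 had log2 signals of 8.07 and 7.98 in Fi1, 7.96 and 7.91 in Fi2 and 8.34 and 8.34 in Wk8 with its brightest probe, against 8.06 and 7.96 in CL19, 7.90 and 8.02 in 3C3 and 7.99 and 7.70 in RMAPC-1. RClone-2 had 6.07 and 5.89. The stem cell lines ran together apart from Wk8, which lay above the rest, and RClone-2 lay below all of them. Col4a2 had 5.32 and 5.23 in Fi1, 5.08 and 5.17 in Fi2 and 6.10 and 6.14 in Wk8, against 4.51 and 4.35 in CL19, 3.78 and 4.38 in 3C3 and 4.24 and 4.40 in RMAPC-1. RClone-2 had 2.82 and 2.68, so that for Col4a2 the 3 groups did not overlap.

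Col4a2 was higher in the blastocyst than in the bone marrow lines by 1.23 ± 0.28 (2.34-fold, adjusted p = 0.0250), and Col4a1 differed by 0.16 ± 0.14 (adjusted p = 0.417). The difference between these 2 differences was not tested. The call of Col4a2 did not survive the removal of any one of RMAPC-1, 3C3, CL19 and Fi1 (adjusted p = 0.0544 to 0.0807) and was lost with normexp (1.16, adjusted p = 0.0741). Col4a1 passed with quantile normalization (0.58, adjusted p = 0.0344) and with no scaling between arrays (0.64, adjusted p = 0.0175) and turned to -0.06 with spike-in scaling. Against RClone-2 the stem cell lines were 4.11-fold higher in Col4a1 (2.04 ± 0.19, adjusted p = 0.00041) and 4.40-fold higher in Col4a2 (2.14 ± 0.38, adjusted p = 0.00519).

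The second probe of Col4a1, at chr16:83045409-83045468, ranged from 3.20 to 3.44 on blastocyst arrays and from 3.20 to 3.58 on bone marrow arrays, with 2.97 and 2.78 in RClone-2. Its difference from RClone-2 was smaller (0.47 ± 0.15, adjusted p = 0.0417). That call was lost without any 1 stem cell line (adjusted p = 0.0538 to 0.0773) and turned to -0.0046 with spike-in scaling. Over the 12 stem cell arrays the probes of Col4a1 correlated at -0.08, those of Lamc1 at 0.86 and those of Nid1 at 0.97 to 0.99, as a description over arrays that share lines and slides.

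The 2 probes described as perlecan, the heparan sulfate proteoglycan of the basement membrane, were higher in the stem cell lines than in RClone-2, by 2.08 ± 0.24 (4.24-fold, adjusted p = 0.00105) and 1.51 ± 0.29 (2.85-fold, adjusted p = 0.00766). The brighter one ranged from 0.79 to 1.27 on blastocyst arrays and from 0.20 to 1.35 on bone marrow arrays, with -1.10 and -1.12 in RClone-2. Neither passed between the origins (0.14 ± 0.18 and -0.70 ± 0.22, adjusted p = 0.594 and 0.0574), and the dimmer passed without 3C3 (-0.91, adjusted p = 0.0397). Its call against RClone-2 was lost with spike-in scaling (1.03, adjusted p = 0.0509) and with the slide as a block (1.10, adjusted p = 0.0698).

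By count, 9 of the 15 probes were higher in the blastocyst than in the bone marrow lines and 0 lower, while over all 29308 probes 9.13% were higher, 23.3% lower and 32.4% called in either direction. By the brightest probe of each gene, 6 of 9 genes were higher (Lama1, Lamb1, Lamb2, Lamc1, Nid1 and Col4a2), and Lama5, Nid2 and Col4a1 did not pass. The median difference of the 15 probes was 0.95, beside -0.20 over all probes. Several of the 15 belong to the same gene, so they are not independent, and whether they read the same transcript was not tested.

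Against RClone-2 the stem cell lines were higher with 8 of the 15 probes and lower with 4, beside 25.3% higher, 22.5% lower and 47.7% in either direction over all probes. The median was 0.47 beside 0.04. By gene 6 were higher (Lama1, Lamb1, Lamc1, Nid2, Col4a1 and Col4a2) and 2 lower (Lama5 and Lamb2), and Nid1 did not pass. The blastocyst lines taken alone gave 8 higher and 4 lower, beside 22.9%, 25.8% and 48.7% of all probes, with a median of 1.67 beside -0.07. The bone marrow lines gave 8 higher and 7 lower, beside 27.0%, 19.8% and 46.8%, with a median of 0.52 beside 0.19. These 3 comparisons share the 2 arrays of RClone-2.

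**Figure D3:**
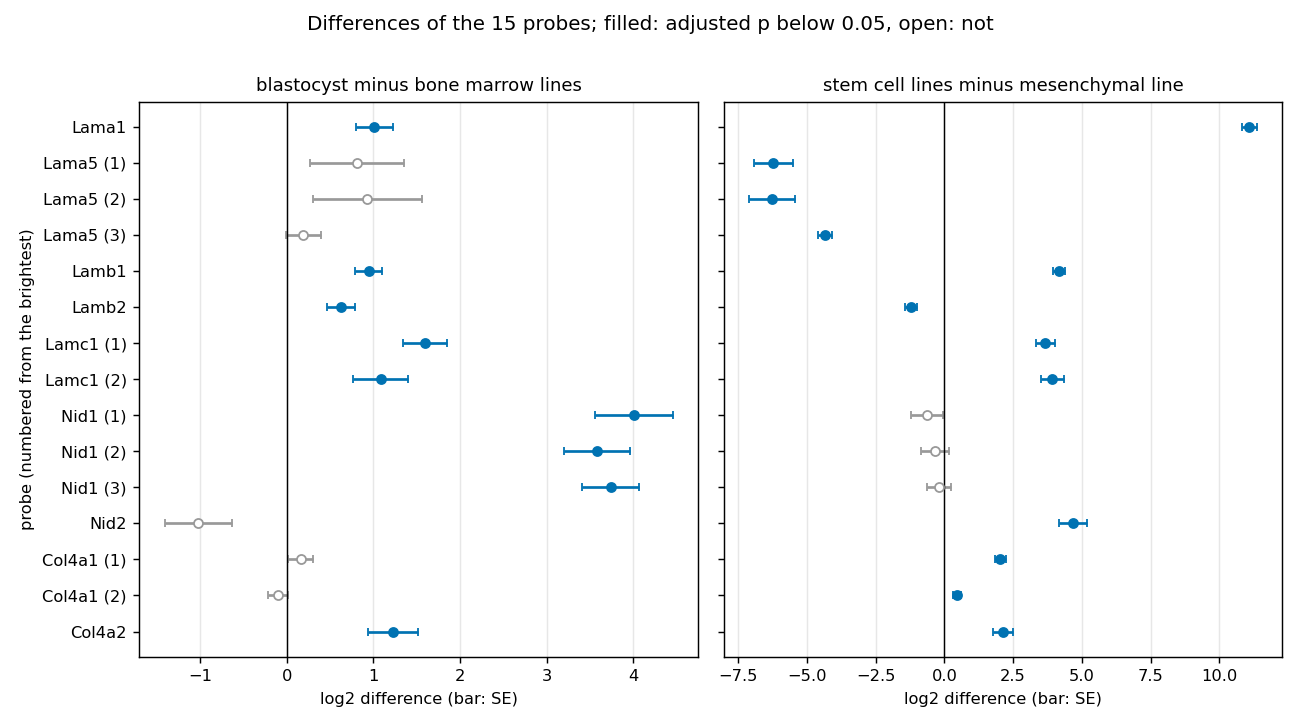
Log2 differences of the 15 probes (horizontal axis, bar: SE), blastocyst minus bone marrow lines on the left and stem cell lines minus RClone-2 on the right, filled where the adjusted p was below 0.05. On the left 9 probes lay above 0 and passed, with Nid1 at 3.58 to 4.01, and on the right Lama1 reached 11.09 while the probes of Lama5 lay between -6.28 and -4.34.

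The origins were not spread evenly over the 4 slides. Slides 1 and 3 held the blastocyst lines and CL19, and slides 2 and 4 held RMAPC-1, 3C3 and RClone-2. The 9 probes called between the origins were picked by a contrast that holds CL19 and the same blastocyst arrays. Within slides 1 and 3 the blastocyst lines exceeded CL19 with all 9, which is no check separate from the calls. The share of all probes with such an excess was not counted. The difference was 3.49 ± 0.62 for the brightest Nid1 probe, 3.52 and 3.89 for the others, 1.47 ± 0.39 for the brightest Lamc1 probe, 0.76 for Lamb1, 0.67 for Lama1, 1.07 for Col4a2 and 0.50 for Lamb2. CL19 is then the only bone marrow line, and in that limma fit, with the slide pair as a term, 0 of the 15 probes and 0 of all 29308 passed after adjustment, against 7 and 7577 at an unadjusted p under 0.05. The smallest adjusted p was 0.0731, for the dimmest Nid1 probe.

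With the slide as a block, the line as a random block and arrays as observations, limma called 5 of the 15 and 3597 of all 29308. The 5 were the brightest Lamc1 probe, the 3 Nid1 probes and Nid2 (-1.44, adjusted p = 0.0433). CL19 was again the only bone marrow line that shared slides with the blastocyst lines, so for bone marrow these calls rest on its 2 arrays. Lama1 (adjusted p = 0.24), Lamb1 (0.0807) and Col4a2 (0.0619) did not pass in that fit. The calls of Lama1 were also lost without 3C3 (0.85, adjusted p = 0.059) or RMAPC-1 (1.00, adjusted p = 0.065), and those of the second Lamc1 probe without any bone marrow line, Fi1 or Fi2 (adjusted p = 0.0537 to 0.12). The brightest Lamc1 probe and the 3 Nid1 probes passed without each line in turn.

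**Figure D4:**
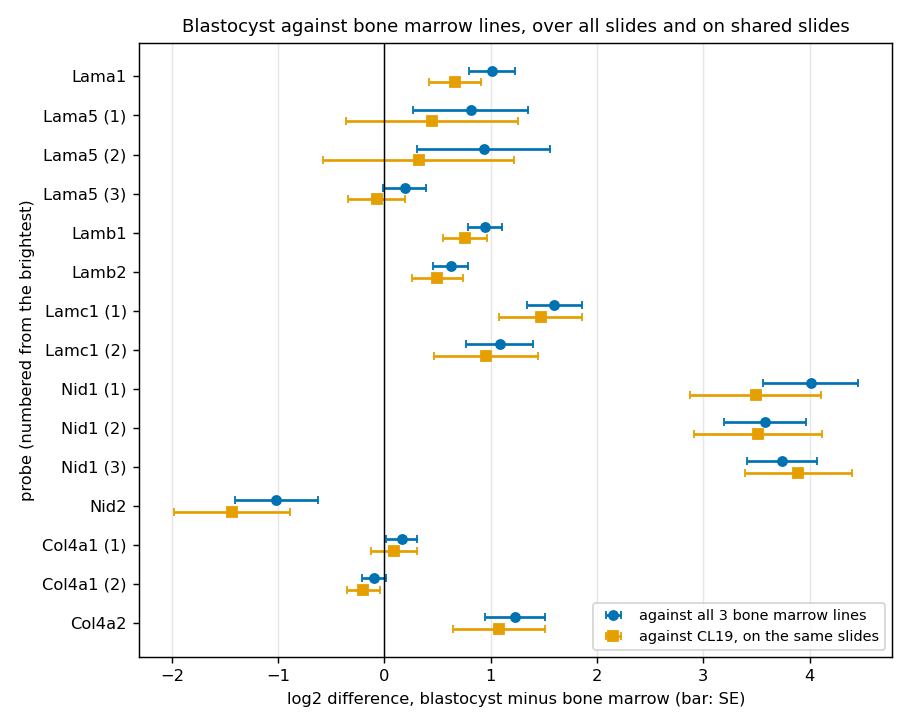
Log2 differences of the 15 probes (horizontal axis, bar: SE), with circles for the blastocyst lines minus all 3 bone marrow lines and squares for the blastocyst lines minus CL19 on the same slides. The squares kept the side of 0 of the circles with the exception of the dimmest Lama5 probe (-0.07 beside 0.19), and Nid1 stayed at 3.49 to 3.89.

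Lines of one origin differed for some chains, by an F-test over arrays whose replicates are the arrays of a line. Among the blastocyst lines 4 of the 15 probes passed, beside 8.47% of all probes. They were Nid2 (adjusted p = 0.00619, lowest in Wk8), the second Lamc1 probe (0.0155, highest in Wk8), Col4a2 (0.0194, highest in Wk8) and the brightest Lama5 probe (0.0250, highest in Fi1). Among the bone marrow lines limma called 0 of the 15, beside 0.696% of all probes.

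Over the 12 stem cell arrays the chains of the embryonic trimer followed each other closely. Pearson's r was 0.98 between Lama1 and Lamb1, 0.91 between Lama1 and Lamc1 and 0.94 between Lamb1 and Lamc1, and Col4a2 correlated with Nid1 at 0.95 and with Lamc1 at 0.94. Nid1 and Nid2 correlated at -0.80, Lama1 and Lama5 at 0.34, and Col4a1 and Col4a2 at 0.75. These values describe arrays that share lines, slides and the difference between origins.

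Among 10398 named genes with a signal on all 12 arrays, the 5 most like Lama1 were Dctn1, Lamb1, Myo9b, Sil1 and Sec16a (r = 0.97 to 0.98). Among those most like Lamc1 were Tmem245, Dst, Susd1 and Ipo5 (0.98 to 0.99), and those most like Nid1 were Il17rb, Plaat3, Pla2r1, Wipi1 and Marveld1 (0.99). Zfr, Marchf8, Mafa, Stt3a and Cbr3 were most like Col4a1 (0.94 to 0.97). Over all 14 arrays, RClone-2 included, Lamb1 followed Lama1 at 0.98, while Dctn1, Myo9b and Sil1 correlated with Lama1 at -0.32, -0.02 and -0.30.

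Other laminin chains were sparse. Lama2 was not tested, since its brightest probe was above background on 1 stem cell array. Lama4, an alpha chain of vessel walls, was higher in the blastocyst than in the bone marrow lines (3.14 ± 0.33, adjusted p = 0.00554). Its signal was above background on 6 of 6 blastocyst arrays and 3 of 6 bone marrow arrays. Lamb3 (0.72 ± 0.70) and Lama3 (0.12 ± 0.27) did not pass, and Lama3 was not above background on any stem cell array. In the blastocyst lines Lama4 was at least 10.2-fold higher than in RClone-2 (adjusted p = 0.00204), where it was not well above background. The bone marrow lines did not pass against RClone-2 (adjusted p = 0.65). The mean of all stem cell lines passed (adjusted p = 0.0157), a call lost with normexp (adjusted p = 0.147) and without the B arrays (adjusted p = 0.192). Lama3 was at least 9.99-fold lower, a call also lost with normexp (adjusted p = 0.0823).

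Of the remaining type IV collagen chains 2 of 4 were tested. Col4a3, a chain of the kidney filter, separated blastocyst from bone marrow lines, being higher in blastocyst lines (1.31 ± 0.28, adjusted p = 0.0198), and was at least 9.48-fold higher in the stem cell lines than in RClone-2 (adjusted p = 0.00011). Leaving out any one of RMAPC-1, 3C3, CL19 and Fi1 ended its call between origins (adjusted p = 0.0544 to 0.0675). Col4a5 did not pass between the origins (-0.28 ± 0.14, adjusted p = 0.179) and was lower in the stem cell lines than in RClone-2 (-0.77 ± 0.19, adjusted p = 0.019), a call lost with normexp (-0.14) and without the B arrays (adjusted p = 0.0665).

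Of 18 other basement membrane proteins 11 were tested. In the blastocyst lines 2 were higher and 1 lower than in the bone marrow lines (median 0.10), beside 9.13% and 23.3% of all probes. Tinagl1, a matricellular protein, was higher (1.44 ± 0.18, adjusted p = 0.00711). Smoc2, a calcium-binding matrix protein, was at least 4.71-fold higher (adjusted p = 0.019), with no bone marrow array above background, and its call was lost without CL19, 3C3 or RMAPC-1 (adjusted p = 0.0518 to 0.0647) and with normexp (0.86). The netrin Ntn4 was lower (-2.42 ± 0.56, adjusted p = 0.0251), a call lost without Fi1, Wk8, 3C3 or RMAPC-1 (adjusted p = 0.0597 to 0.0808), with normexp (-0.51) and within slides 1 and 3 (-1.16, adjusted p = 0.137). Col18a1, whose cleavage gives endostatin, did not pass (-2.46 ± 0.89, adjusted p = 0.080).

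Against RClone-2, the stem cell lines had 4 of these 11 higher and 4 lower (median 0.23), beside 25.3% and 22.5% of all probes. Fbln1, which binds laminin and nidogen, was higher (4.41 ± 0.23, adjusted p = 3.41e-05). For Smoc2 the blastocyst lines were lower by a log2 difference of -9.29 (adjusted p = 0.000771) and the bone marrow lines at least 2947-fold (adjusted p = 0.000219). Col15a1 (-4.07 ± 0.92, adjusted p = 0.0135) and Col18a1 (-3.56 ± 1.18, adjusted p = 0.0487) were lower, and the call of Col18a1 was lost without Fi1 or any 1 bone marrow line (adjusted p = 0.0677 to 0.0848).

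Enzymes and chaperones that modify and assemble collagen had 21 of 22 genes tested. Of these 6 were higher and 1 lower in the blastocyst than in the bone marrow lines (median 0.33), beside 9.13% and 23.3% of all probes. The prolyl isomerase Fkbp10 (1.88 ± 0.23, adjusted p = 0.00657), P3h4, a partner of collagen hydroxylases (1.60 ± 0.18, adjusted p = 0.00584), Pxdn, the peroxidase that crosslinks type IV collagen (1.18 ± 0.22, adjusted p = 0.0145), and the collagen galactosyltransferase Colgalt1 (1.10 ± 0.11, adjusted p = 0.00549) were among the higher ones. Pxdn lost its call without 3C3 or RMAPC-1 (adjusted p = 0.0543 and 0.0515) and with normexp (1.10, adjusted p = 0.0505). Of the 21 tested, 7 were higher and 7 lower in stem cell lines than in RClone-2 (median 0.13), beside 25.3% and 22.5% of all probes. The lysyl oxidase Loxl1, which crosslinks elastin (-11.04 ± 0.86, adjusted p = 0.000192), and P4ha3 (at least 130-fold, adjusted p = 1.47e-05) were lower, and Loxl1 was above background on 6 of 6 blastocyst arrays and 5 of 6 bone marrow arrays. Lox, which crosslinks fibrillar collagen and elastin, was above background on 3 of 6 blastocyst arrays and 0 of 6 bone marrow arrays. It was lower by a log2 difference of -9.66 in the blastocyst lines (adjusted p = 6.12e-05) and at least 491-fold in the bone marrow lines (adjusted p = 4.32e-05). P3h2, a prolyl hydroxylase known to act on type IV collagen, was higher (6.28 ± 0.59, adjusted p = 0.000409).

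Genes of heparan sulfate synthesis, whose product decorates perlecan, were all tested. Of 13, 4 were higher and 0 lower in the blastocyst than in the bone marrow lines (median 0.39), beside 9.13% and 23.3% of all probes. Among the higher ones were Xylt2 (0.90 ± 0.18, adjusted p = 0.017), which starts the chain, Ext2 (0.78 ± 0.13, adjusted p = 0.0122), a polymerase subunit, and B3galt6 (0.53 ± 0.14, adjusted p = 0.0374). B4galt7 did not pass (0.67 ± 0.20, adjusted p = 0.0522). Xylt2 lost its call without Fi1, 3C3 or RMAPC-1 (adjusted p = 0.0554 to 0.0586) and B3galt6 without any 1 stem cell line (adjusted p = 0.0593 to 0.105). With normexp Xylt2 (adjusted p = 0.0503), Ext2 (0.0547) and B3galt6 (0.146) lost theirs. Against RClone-2, the stem cell lines had 2 higher and 6 lower (median -0.52), beside 25.3% and 22.5% of all probes. Ext1 was higher (2.90 ± 0.21, adjusted p = 0.000146), and Hs6st1 (-2.62 ± 0.40, adjusted p = 0.00302), Extl3 (-1.97 ± 0.22, adjusted p = 0.000903) and Ndst1 (-1.39 ± 0.26, adjusted p = 0.00676) were lower.

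Of 10 basement membrane receptors 0 were higher and 1 lower in the blastocyst than in the bone marrow lines (median 0.09). Over all probes 9.13% were higher and 23.3% lower. The 1 lower receptor was Itga7, an alpha chain of laminin-binding integrins (-0.78 ± 0.23, adjusted p = 0.0457), whose call was lost without any 1 stem cell line (adjusted p = 0.0539 to 0.128) and with normexp (-0.84, adjusted p = 0.0631). Itgb4 (0.73 ± 0.23, adjusted p = 0.054), Itga1 (-0.69 ± 0.37, adjusted p = 0.199) and Ddr1 (0.42 ± 0.26, adjusted p = 0.256) did not pass. Of the same 10, 3 were higher and 5 lower in stem cell lines than in RClone-2 (median -0.84), beside 25.3% and 22.5% of all probes. Itga2, a collagen- and laminin-binding chain, was at least 51.1-fold higher (adjusted p = 5.83e-06) and Itga7 higher by 5.44 ± 0.30 (adjusted p = 4.78e-05), while Itga3, which pairs with Itgb1 to bind Lama5-containing laminins, was lower (-6.22 ± 0.30, adjusted p = 2.78e-05). The laminin receptor Bcam was at least 2.94-fold higher (adjusted p = 6e-04), a call lost with normexp (adjusted p = 0.315).

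Markers of other cell states are given beside these values. Of 5 endothelial markers 3 were higher in the blastocyst than in the bone marrow lines (Kdr, Tek and Vwf) and 0 lower, and Pecam1 and Cdh5 did not pass. The log2 sum of their signals lay between 0.29 and 1.61 on blastocyst arrays, -1.68 and -0.30 on bone marrow arrays and -3.88 and -3.79 in RClone-2, and all 5 were well above background on all 12 stem cell arrays. A log2 sum follows mostly the brightest probes of a list. Of 7 parietal endoderm markers 2 were higher (Plat and Pth1r), 0 lower and 5 did not pass. Their log2 sums overlapped, with 9.20 to 9.64 on blastocyst arrays, 8.98 to 9.37 on bone marrow arrays and 6.96 and 7.50 in RClone-2. The means of their log2 signals did not overlap, with 4.11 to 4.72 on blastocyst arrays and 3.34 to 4.04 on bone marrow arrays. Other lists had members on the lower side. Of 8 primitive endoderm markers 4 were lower in the blastocyst lines and 0 higher, with log2 sums of 6.98 to 7.32 on blastocyst arrays, 7.51 to 7.79 on bone marrow arrays and 1.39 and 1.57 in RClone-2. Of 7 visceral endoderm markers 2 were lower and 0 higher, with log2 sums of 6.98 to 7.50, 8.04 to 8.47, and -0.13 and -0.02 in the same groups. The means of their log2 signals overlapped, with -1.78 to 0.01 on blastocyst arrays and -0.95 to 0.29 on bone marrow arrays. Both pluripotency markers tested were lower in blastocyst lines, Pou5f1 by a log2 difference of -2.80 (adjusted p = 0.00858) and Dppa3 of -4.19 (adjusted p = 0.00943). Of 4 trophoblast markers 1 was lower, of 9 mesenchymal markers 1 was lower, and of 2 blood markers 0 passed, with 0 higher in each. These counts stand beside 9.13% higher and 23.3% lower over all probes. The part of these cell states in the values of the laminin, nidogen and collagen chains was not tested.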

How the data were processed

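Total RNA of 7 rat lines was labelled with Cy3 and hybridised to 14 Agilent one-colour arrays, 2 per line. Per the file headers the authors extracted the spots with Agilent Feature Extraction 10.7.3.1. The deposited scanner tables hold an intensity per spot (processed signal, mean signal, local background) with no scaling across arrays, and quality flags, other values that are 0 or 1. In the deposited series table the values are log2, and sorted by size they matched the sorted log2 processed signals with a largest difference of 0.

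The log2 of the processed signal was taken and each array's 75th percentile over 43379 non-control spots was subtracted. Each array lost 65 to 193 outlier spots, and repeated spots of a probe were averaged. The names of 20919 of 41012 probes were matched to RefSeq's GRCr8 table, and 20093 kept the file's name without a match. A probe was tested if at least 1 line had both its arrays well above background. Arrays A and B were averaged, and limma 3.58.1 (lmFit and eBayes, R 4.3.3) was run on the 7 line means in 3 groups, which left 4 residual degrees of freedom. P-values were adjusted by Benjamini-Hochberg over 29308 probes, with a threshold of 0.05. The spread of the 1 mesenchymal line was taken from the other lines. The number of lines limits the precision, with SEs of 0.11 to 0.63 between origins for the 15 probes. Where no array of a group had a probe well above background, the fold is at least the one against the dimmest probe that was.

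All probes of the genes were named, the brightest first, up to 4 tested genes of each list with the largest differences, and the 5 genes most like Lama1, Lamc1, Nid1 and Col4a1. The members and lists were chosen with earlier results of these data known. Some genes that these rules would name are not reported here. The background correction, scaling, filter, choice of probe and block were each changed in turn, and lines or arrays were left out. The fits were tested on simulated data. Arrays with the same letter did not pair (r from -0.14 to 0.15 over 30 pairs, 2 over 0.1). Figures were drawn with matplotlib 3.10.9 in Python 3.11.15.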

Additional observations from a re-analysis of the deposited data

Results flagged for a closer look

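Nid1 was picked out because the blastocyst lines and the bone marrow lines lay on opposite sides of RClone-2, with every line of an origin on its side. The difference between the sides, tested by the contrast of the origins with limma, was 4.01, 3.58 and 3.74 on the log2 scale with its 3 probes. The dimmest Lama5 probe was picked out because its difference between origins had opposite signs in male and female lines, 0.66 in the males and -0.24 in the females, a gap of 0.90. The second probe of Col4a1 had 0.04 in the males and -0.24 in the females, a gap of 0.28. These 2 gaps were not tested, and each sex holds 1 line of one origin and 2 of the other.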

How the results depend on the processing

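Of 195 results of the 9 probes called between the origins under other settings, 149 kept the call, 46 lost it and 0 changed sign. Those kept include 9 without RClone-2, which repeat the main result, since a group of 1 line adds nothing to the spread between lines. For blastocyst versus bone marrow lines, 9492 of all probes and 9 of the 15 passed, against 1618 and 4 with normexp background correction, 3597 and 5 with the slide as a block, and 0 and 0 with the slide pair as a term (7577 and 7 at an unadjusted p under 0.05). Over all probes 3025 passed without the A arrays, 6182 without the B arrays and 5601 without array A of RMAPC-1. Leaving out 1 stem cell line at a time gave 3582 to 7126 calls over all probes and 5 to 9 over the 15. The low ends came without RMAPC-1 for all probes and without 3C3 or RMAPC-1 for the 15. Against the mesenchymal line normexp gave 7024 in place of 13990 for all stem cell lines, 6522 in place of 14267 for the blastocyst lines and 6891 in place of 13711 for the bone marrow lines, and the slide-pair term gave 7256 for the blastocyst lines. The F-test among bone marrow lines called 95 probes with no filter, in place of 204. Of the 5 genes most like each member, 0 for Lama1, 0 for Lamc1, 2 for Nid1 and 0 for Col4a1 were the same over all 14 arrays. The cause of these changes was not tested.

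Scaling moved the balance of calls. Between the origins 28.2% of calls were higher in the blastocyst lines, against 43.3% with quantile normalization, 45.5% with the percentile over detected probes, 40.7% with normexp, 16.3% with spike-in scaling and 84.7% unscaled, with the median of all probes at -0.20, -0.06, -0.06, -0.09, -0.42 and 0.28. For stem cell lines versus mesenchymal line it was 52.9%, against 29.2% with spike-in scaling and 63.6% unscaled. For the blastocyst lines it was 47%, against 23.2% and 69.2%, and for the bone marrow lines 57.7%, against 37.1% with spike-in scaling.

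Signs also changed, for 1 called value (the second Col4a1 probe against RClone-2) and otherwise for values that had not passed. Between the origins these were Lama3 (-0.0159 with normexp, -0.10 with spike-in scaling, -0.27 with the slide as a block and with the pair term, -0.12 without the B arrays, -0.0733 without Wk8 to 0.352 without Fi2), the second Col4a1 probe (0.12 with quantile normalization, 0.0412 with the detected percentile, 0.38 unscaled), the dimmest Lama5 probe (-0.0259 with spike-in scaling, -0.0739 with the slide as a block and with the pair term, -0.0752 without the A arrays), the brightest Col4a1 probe (-0.0555 with spike-in scaling), the brighter perlecan probe (-0.0809 with spike-in scaling, -0.18 with the slide as a block and with the pair term, -0.0063 without array B of RMAPC-1, -0.0295 without 3C3 to 0.2966 without CL19), Col4a5 (0.20 unscaled) and Lamb3 (-0.0472 without RMAPC-1 to 1.3202 without 3C3). Against RClone-2 they were the second Nid1 probe (0.19 with normexp, 0.0117 without the A arrays), the dimmest (0.29 with normexp, 0.0112 unscaled), the nidogen 2-like probe near background, ENSRNOT00000049009 (0.0129 with normexp), and with spike-in scaling the second Col4a1 probe (-0.0046 for all stem cell lines, -0.16 for the blastocyst lines).

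Arrays A and B share only a letter. With the letter as a replicate block 11989 probes passed between the origins, 10 of them among the 15, with Nid2 added (adjusted p = 0.0164).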

Other observations

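Among probes outside the report's comparisons, 5 carry a description of a gene like nidogen 2 without bearing its symbol. Of these, 4 (LOC302022, LOC316493, LOC363417 and XR_006748) were higher in the stem cell lines than in RClone-2, by 3.17, 2.96, 2.89 and 2.56 on the log2 scale with limma (adjusted p = 0.000112, 0.000125, 0.000433 and 0.000662), beside 4.67 for Nid2 itself. Between blastocyst and bone marrow lines, LOC316493 passed the test with an adjusted p of 0.0192 (blastocyst lines 1.69-fold lower), and the other 3 of these did not pass. The remaining probe lay near background and gave -0.23 against RClone-2 (adjusted p = 0.498). Over all probes 25.3% were higher in the stem cell lines than in RClone-2. Whether these probes read the Nid2 transcript was not tested.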
